A study of Mus musculus with 10 samples.

Results

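Mouse B cells with activated Notch were set directly against mouse B cells with activated NF-kB. The comparison rests on 4 of the 10 RNA sequencing libraries, 2 labelled as Notch-activated and 2 labelled as NF-kB-activated, chosen by their sample titles and not by any measured value. The Notch-labelled libraries came from lymph node of mice carrying Rosa-Notch2ICN and CD19Cre, and their cell type label is marginal zone B cells. The NF-kB-activated libraries came from lymph node of mice carrying Rosa-NIKdeltaT3flSTOP and CD19Cre, and their label is marginal zone precursor B cells. The remaining libraries, 2 a group, were doubly activated (both Rosa alleles with CD19Cre), lymphoma (the same 3 alleles, lymphoma tissue) and wild-type control cells. All mice are labelled C57BL/6, all cells were sorted, and neither age nor sex is given. The doubly activated and control cells carry the precursor label, whereas the deposited tables of the Notch-labelled libraries are named with the letters of the precursor. The stage of the cells and the activated pathway therefore differ together between the groups compared and cannot be told apart.

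Notch receptors are cut at the membrane after a ligand of the Delta or Jagged family binds them, and the released intracellular part enters the nucleus, joins the DNA-binding protein RBPJ and turns on targets such as the Hes and Hey repressors. In the spleen, signalling through NOTCH2 is required for marginal zone B cells to form. NIK, the kinase encoded by Map3k14, is kept low by TRAF3, and when it is stable it drives processing of the NFKB2 precursor p100 to p52, the partner of RELB in the noncanonical NF-kB pathway downstream of the BAFF receptor and CD40. The Cre used here acts throughout the B lineage, so neither allele is confined to the stage that was sorted.

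The estimated counts per library came to 18864545 and 18802121 in the Notch-labelled group, against 19267466 and 19247726 in the NF-kB-activated group, and lay between 16380889 and 23102081 over all 10. Counts were summed to genes, and levels are given as CPM (counts scaled to a common library total) after TMM scaling. A gene was called when its adjusted p in edgeR's quasi-likelihood test was under 0.05, and a number in brackets after a gene is its log2 fold change, Notch-labelled over NF-kB-activated, with its standard error after ±. For every gene given with its levels, both libraries of one group lay above both of the other unless an overlap is stated. The same held for 13477 of the 15583 genes tested, so it sets no gene apart by itself. On log2 CPM the 2 Notch-labelled libraries correlated at 0.995 with each other and the 2 NF-kB-activated ones at 0.994, while pairs across the groups lay between 0.865 and 0.880. The NF-kB-activated libraries lay at 0.974 to 0.978 with control libraries and at 0.975 to 0.983 with doubly activated ones. The Notch-labelled libraries lay at 0.865 to 0.892 with the libraries of every other group, so they were the ones further from control. Nothing in the labels ties a library to its own animal.

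The antigen receptor genes set the Notch-labelled libraries apart from the NF-kB-activated ones. Ighv1-55 took 92.8% of all Ighv counts in library 1 and 93.8% in library 2 (Wilson 95% intervals 92.2% to 93.5% and 93.1% to 94.3%), and Igkv12-41 took 92.7% and 94.1% of the Igkv counts. In the NF-kB-activated libraries the most abundant Ighv segment held 6.17% and 4.99%, and the most abundant Igkv segment 7.13% and 6.66%. A single segment also dominated the lymphoma libraries, where Ighv1-11 held 92.3% and 92.1% and Igkv17-121 held 90.8% and 91.7%. Both Notch-labelled libraries thus drew nearly all their V segment counts from the same pair of segments, one heavy and one light. Whether the 2 libraries share an animal or a clone was not tested. They were used as 2 samples because the labels list them so. Their counts differed by more than counting noise (chi-square per degree of freedom 4.48, against 7.86 between the NF-kB-activated libraries and 10.6 to 22.1 in the other 3 groups), which bears only on whether 1 library was deposited in duplicate.

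The summed levels of several marker lists of other cells and of Y-linked genes also differed between the groups. Of all genes tested, 33.5% were called higher and 31.0% lower. The lower calls of the neutrophil and macrophage lists in the main fit did not exceed that share. Of 9 stromal and endothelial genes tested, 8 were higher and 1 lower, and the summed level of the list was 824 and 1047 CPM in Notch-labelled libraries, against 192 and 197 CPM in NF-kB-activated ones, with Ccl21a at 0 in all 4. The lower call, Pecam1, was lost without any 1 of the 4 libraries (adjusted p between 0.0532 and 0.157). The median log2 fold change of that list was 7.55, or 7.37 with genes at 0 held at their bound. The 14 T cell genes summed to 479 and 481 CPM in Notch-labelled and 178 and 195 CPM in NF-kB-activated libraries, with 7 higher and 3 lower, the lower calls becoming 1 without either Notch-labelled library or without NF-kB-activated replicate 2. In the other direction, 13 neutrophil genes summed to 91.0 and 88.4 CPM in Notch-labelled and 500.4 and 157 CPM in NF-kB-activated libraries, with 3 lower. Of these calls S100a8 and Retnlg were lost, leaving 1, without either Notch-labelled library or without NF-kB-activated replicate 1, while 6 were lower without NF-kB-activated replicate 2 and 5 without either control library. The macrophage list summed to 69.6 and 68.2 CPM in Notch-labelled and 213 and 153 CPM in NF-kB-activated libraries, and 4 of its 13 tested genes were lower, which became 1 without Notch-labelled replicate 1 (C1qb, C1qc and Timd4 lost their calls), 2 without Notch-labelled replicate 2 or NF-kB-activated replicate 1, and 8 without either control library. All 4 Y-linked genes measured were lower, or 2 without either Notch-labelled library (Ddx3y and Eif2s3y lost their calls), their sum being 23.7 and 25.0 CPM in Notch-labelled and 487 and 523 CPM in NF-kB-activated libraries. Mitochondrial transcripts took 1.93% and 2.04% of the Notch-labelled counts, against 3.23% and 3.27% of the NF-kB-activated counts, and 12 of 13 mitochondrial genes were called lower. The part of these other cells, of sex and of the mitochondrial share in the results was not tested.

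**Figure D1:**
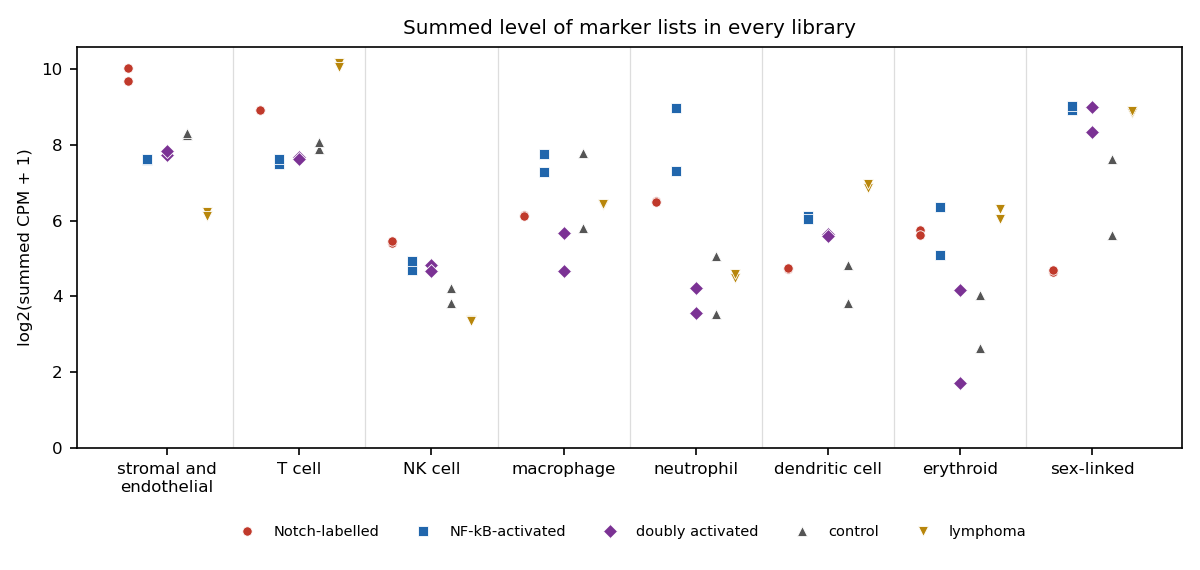
Summed level of 8 marker lists in every library, as log2 of the summed CPM + 1 on the vertical axis, with 1 point per library. Stromal, T cell and NK cell sums are higher in Notch-labelled libraries than in NF-kB-activated ones, whereas the macrophage, neutrophil, dendritic cell and sex-linked sums are lower.

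Across the transcriptome, 10060 of 15583 genes tested were called (64.6%), of which 5226 were higher (33.5% of those tested) and 4834 lower (31.0%). The median log2 fold change of all genes was 0.03. By more than 2-fold, 3184 genes were higher and 2416 lower. With most genes called, a count of called members says little by itself, so counts are to be read against these shares. For most lists the median log2 fold change is given too. 49 genes had no count in either NF-kB-activated library and at least 5 CPM in both Notch-labelled ones, and 5 genes showed the reverse.

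**Figure D2:**
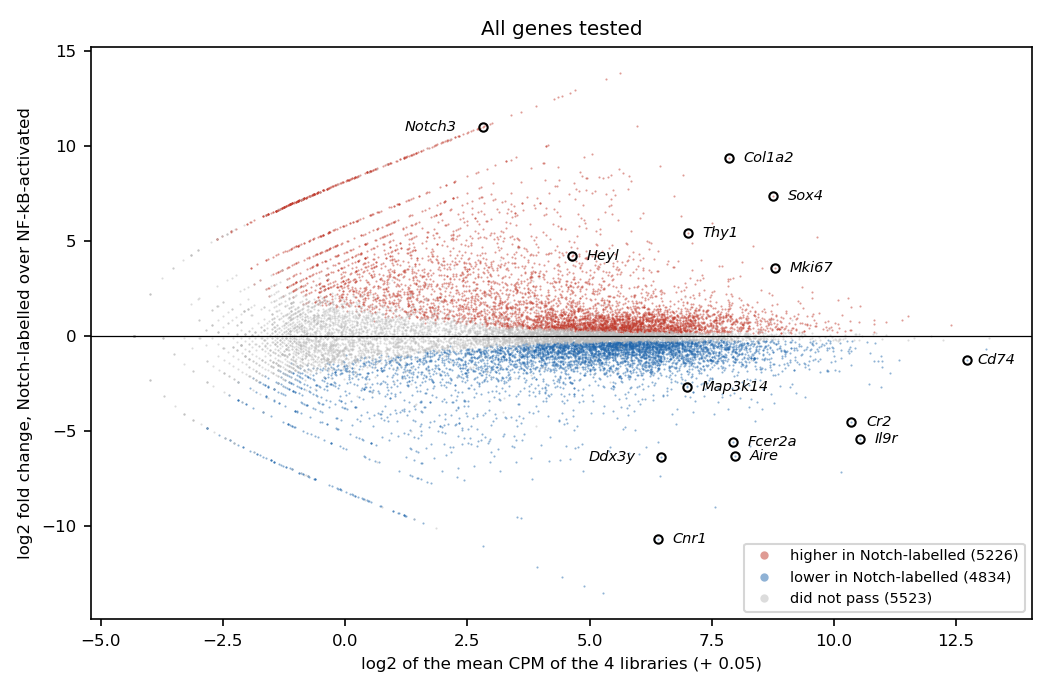
Each point is 1 of 15583 genes, with log2 of its mean CPM over the 4 libraries (+ 0.05) on the horizontal axis and its log2 fold change, Notch-labelled over NF-kB-activated, on the vertical axis. Red points were called higher (5226), blue points lower (4834) and grey points did not pass (5523). Circles with a gene name mark genes described in the text.

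The alleles themselves were checked first. Map3k14 (ENSMUSG00000020941, chr11:103219762-103267472, GRCm38), which encodes NIK, stood at 36.5 and 33.4 CPM in Notch-labelled libraries and at 219.8 and 217 CPM in NF-kB-activated ones (-2.65 ± 0.11, adjusted p = 1.56e-09 in edgeR). Control cells had 103 and 129.6 CPM, so that the NF-kB-activated libraries lay above control and the Notch-labelled ones below it. Notch2 (ENSMUSG00000027878, chr3:98013527-98150361) went the other way from its label, with 284 and 278 CPM in Notch-labelled and 794 and 772 CPM in NF-kB-activated libraries (-1.48 ± 0.09, adjusted p = 2.24e-08). The Rosa allele holds only the intracellular part of the receptor, and the table gives totals over the transcripts of the endogenous gene, so the Notch2 total checks that allele weakly.

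Heyl (ENSMUSG00000032744, chr4:123233556-123249875), a basic helix-loop-helix repressor that Notch switches on, was measured at 50.9 and 44.0 CPM in Notch-labelled libraries, against 2.93 and 2.15 CPM in NF-kB-activated libraries. The groups did not overlap (4.22 ± 0.17, adjusted p = 1.56e-09). Doubly activated cells, which carry the same Notch2 allele, had 23.3 and 25.6 CPM and control cells 0.430 and 0.381 CPM. Cnr1 (ENSMUSG00000044288, chr4:33924593-33948831), the cannabinoid receptor CB1, was nearly silent in Notch-labelled libraries at 0.150 and 0.0494 CPM and stood at 146 and 192 CPM in NF-kB-activated ones (-10.64 ± 0.32, adjusted p = 6.76e-10). The Notch-labelled level rests on 3 and 1 counts, so the size of the fold is uncertain. Doubly activated libraries, which also carry the NIK allele, had 49.98 and 36.7 CPM and control libraries 0.246 and 0.217 CPM. Lymphoma libraries carry it too and had 0.139 and 0.147 CPM. The cause of these differences was not tested.

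Promoter sequence of Cnr1 and of Traf1, both lower in Notch-labelled cells, is shown because Cnr1 had the largest named fall and Traf1 is one of the NF-kB target genes described further on. Each line gives the 250 bases before the first start in the RefSeq promoter table (GRCm38.p6), 5′ to 3′ on the gene's own strand, with capitals reserved for a motif match. The Cnr1 window is chr4:33924014-33924263, plus strand, and the Traf1 window is chr2:34961773-34962022, minus strand.
Cnr1: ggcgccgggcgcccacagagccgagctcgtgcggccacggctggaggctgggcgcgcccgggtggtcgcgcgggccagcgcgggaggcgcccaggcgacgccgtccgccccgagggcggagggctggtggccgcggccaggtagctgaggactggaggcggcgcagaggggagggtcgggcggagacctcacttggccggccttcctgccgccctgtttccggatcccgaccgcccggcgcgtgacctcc
Traf1: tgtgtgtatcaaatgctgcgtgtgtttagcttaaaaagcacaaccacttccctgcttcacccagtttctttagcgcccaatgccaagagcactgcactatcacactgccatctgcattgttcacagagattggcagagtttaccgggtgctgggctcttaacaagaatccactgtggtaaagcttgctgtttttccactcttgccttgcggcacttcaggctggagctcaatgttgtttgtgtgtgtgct
Neither window holds the RBPJ core TGGGAA on either strand or a match to the NF-kB site, so no letter is in capitals. A later Cnr1 start has 1 RBPJ core match 130 bases upstream. Dtx1 also has an entry, with no match to either motif, while Heyl and Hes1 are named only. Over 32851 starts in the table, 21.6% hold the RBPJ core and 7.25% the NF-kB site. Among the 12 genes with the largest rise, 8 had entries with 11 starts, of which 18.2% held the RBPJ core and 18.2% the NF-kB site. The 8 genes with entries among the 12 largest falls also had 11 starts, of which 27.3% held the RBPJ core and 9.09% the NF-kB site.

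**Figure D3:**
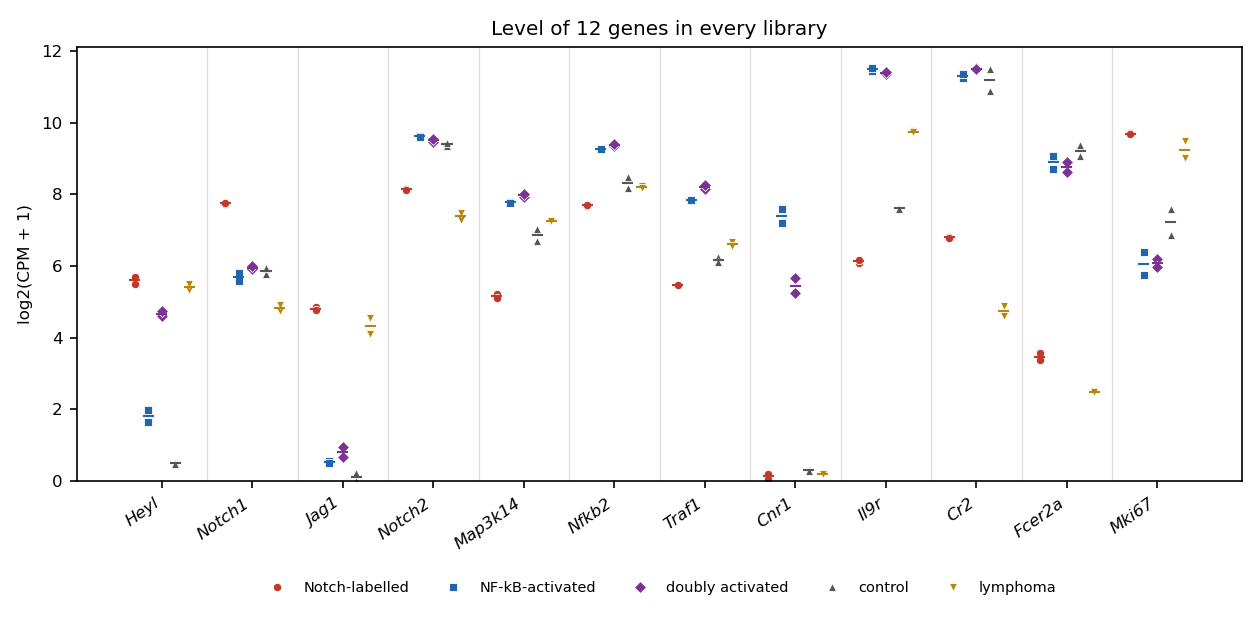
Level of 12 genes in every library, as log2(CPM + 1) on the vertical axis, with 1 point per library and a bar at the group mean. Heyl, Notch1, Jag1 and Mki67 are higher in the Notch-labelled libraries than in the NF-kB-activated ones, and the other 8 genes are lower.

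Among the parts of the Notch pathway, the receptors and ligands were split. Of 23 receptors, ligands and cofactors tested, 8 were higher, 10 lower and 5 not called, with a median log2 fold change of -0.10, against 0.03 for all genes. Without Notch-labelled replicate 2 the lower calls were 6. Notch1 had 212 and 216 CPM in Notch-labelled libraries and 46.7 and 55.1 CPM in NF-kB-activated ones (2.07 ± 0.10, adjusted p = 6.83e-09). Notch3, a receptor better known from vascular smooth muscle, had 14.5 and 13.3 CPM in Notch-labelled libraries and no count in NF-kB-activated ones, which makes it at least 177-fold higher against a floor of 3 counts over the group. The ligand gene Jag1 reached 28.1 and 26.1 CPM in Notch-labelled cells and 0.472 and 0.419 CPM in NF-kB-activated cells (5.91 ± 0.35, adjusted p = 2.92e-08). Receptor and ligand genes other than Notch2 and Dll1 thus stood on the Notch-labelled side wherever they were called. Dll1, a Delta ligand, had 0.749 and 1.19 CPM in Notch-labelled and 9.85 and 10.9 CPM in NF-kB-activated libraries (-3.41 ± 0.39). Psen2, a catalytic subunit of the gamma-secretase that releases the intracellular part, had 26.9 and 24.0 CPM in Notch-labelled libraries and 88.0 and 89.7 CPM in NF-kB-activated ones (-1.80 ± 0.10). Rbpj itself did not pass and its groups overlapped, at 59.4 and 64.5 CPM in Notch-labelled and 61.5 and 71.5 CPM in NF-kB-activated libraries.

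Notch target genes leaned to the Notch-labelled side, with 10 of 15 tested genes higher, 1 lower and a median log2 fold change of 1.86. Besides Heyl, Il2ra, the alpha chain of the interleukin 2 receptor, was at 47.1 and 70.1 CPM in Notch-labelled libraries, against 2.25 and 2.93 CPM in NF-kB-activated libraries (4.49 ± 0.24, adjusted p = 1.25e-08). Cdkn1a, which encodes the cell cycle inhibitor p21, was at 32.4 and 42.0 CPM in Notch-labelled and 0.838 and 0.366 CPM in NF-kB-activated libraries (5.93 ± 0.32, adjusted p = 1.17e-08). Unlike Heyl, Cdkn1a was no higher in doubly activated cells (0.668 and 0.392 CPM) than in control cells (1.29 and 1.14 CPM). The repressor Hes5 (2.92), cyclin D1 gene Ccnd1 (3.48), T cell factor gene Tcf7 (2.67), feedback regulator Nrarp (1.86) and Myc (1.32) were higher as well. Hes5 had 11.7 and 7.39 CPM in doubly activated cells, which carry the same allele, and 15.5 and 13.2 CPM in control cells, which lack it.

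Dtx1 and Hes1 lay near the threshold. Dtx1, a Deltex ubiquitin ligase gene and a marginal zone target of NOTCH2, had 1022 and 959.8 CPM in Notch-labelled libraries and 857 and 669 CPM in NF-kB-activated ones (0.38 ± 0.12, adjusted p = 0.0165), and the call was lost without Notch-labelled replicate 1 (adjusted p = 0.0951) or NF-kB-activated replicate 2 (adjusted p = 0.287). Doubly activated cells had 1346 and 1609 CPM of it and control cells 718 and 680.4 CPM. Hes1, the best known target, had 62.9 and 79.5 CPM in doubly activated and 79.8 and 51.7 CPM in control libraries. It did not pass, at 55.0 and 53.9 CPM in Notch-labelled and 42.4 and 40.6 CPM in NF-kB-activated libraries (0.39 ± 0.18, adjusted p = 0.0848). It passed without control replicate 1 (adjusted p = 0.00723) or 2 (adjusted p = 0.0124). Asb2, Ptcra and Hey1 did not pass either, though Asb2 was called lower without NF-kB-activated replicate 2 (adjusted p = 0.0456) or doubly activated replicate 1 (0.0414). Dtx4 was lower, at 20.4 and 21.1 CPM in Notch-labelled and 32.9 and 32.4 CPM in NF-kB-activated libraries.

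The noncanonical NF-kB axis was lower in Notch-labelled cells for 10 of 13 genes and higher for 2, with a median log2 fold change of -0.76. Its genes summed to 1522 and 1475 CPM in Notch-labelled and 2494 and 2588 CPM in NF-kB-activated libraries, with control libraries between at 2127 and 2214 CPM. Nfkb2, which encodes p100, had 203 and 209 CPM in Notch-labelled libraries and 618 and 619.5 CPM in NF-kB-activated ones (-1.59 ± 0.09, adjusted p = 2.92e-08). Birc3, the ubiquitin ligase cIAP2 that acts with TRAF3 on NIK, had 101 and 102 CPM in Notch-labelled and 310.0 and 324 CPM in NF-kB-activated libraries (-1.65 ± 0.07). The within-group pairs lay close together for both genes and the groups stood well apart. Birc3 was named for its small p, so for that gene this follows in part from the choice. Relb fell to 78.1 and 71.3 CPM in Notch-labelled libraries, against 127 and 125 CPM in NF-kB-activated ones (-0.76 ± 0.12, adjusted p = 0.000106). Of the receptors that feed the axis, Cd40 was lower (-0.74), Tnfrsf13b, which encodes TACI, was higher (1.18), Ltbr, the lymphotoxin beta receptor gene, was higher (3.795), and Tnfrsf13c, the BAFF receptor gene, did not pass (0.14).

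Canonical subunits and inhibitors followed, with 8 of 14 genes lower, 2 higher and a median log2 fold change of -0.49. Rel, the c-Rel gene, had 40.2 and 39.5 CPM in Notch-labelled and 100.2 and 102 CPM in NF-kB-activated libraries (-1.34 ± 0.16). The deubiquitinase gene Cyld (-0.996), the inhibitor gene Nfkbie (-0.96) and the NEMO gene Ikbkg (-0.90) were also lower, while Nfkb1 (0.20) and Nfkbid (0.88) were higher. Both of those calls were lost without Notch-labelled replicate 1 or NF-kB-activated replicate 2. The Nfkb1 call was also lost without Notch-labelled replicate 2, NF-kB-activated replicate 1, control replicate 2 or doubly activated replicate 1.

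Of 25 NF-kB target genes, 13 were lower, 4 higher and 8 not called, with a median log2 fold change of -1.19. Il12a, the p35 subunit of interleukins 12 and 35, was at 1.10 and 1.09 CPM in Notch-labelled libraries and 53.5 and 58.5 CPM in NF-kB-activated ones (-5.67 ± 0.15, adjusted p = 1.14e-10). Traf1, an adaptor of tumour necrosis factor receptors, was at 43.4 and 43.7 CPM in Notch-labelled and 228 and 229 CPM in NF-kB-activated libraries (-2.39 ± 0.08, adjusted p = 7.69e-10). Plek, which encodes pleckstrin, was at 66.8 and 63.4 CPM in Notch-labelled and 290.3 and 303 CPM in NF-kB-activated libraries (-2.19 ± 0.08). Lymphotoxin genes Lta (-2.62) and Ltb (-1.43), the death receptor gene Fas (-3.94), the survival gene Bcl2a1b (-2.16, which shares reads with its near-identical copies) and Cd83 (-1.19) were lower too. The 4 genes in the other direction were Irf4 (1.45), Bcl2l1 (2.35), which encodes BCL-XL, and the chemokine genes Ccl5 (1.59) and Cxcl10 (3.36). For Il12a and Traf1 the contrast of doubly activated over control, which shares no library with the main one, gave log2 fold changes of 1.93 ± 0.11 (adjusted p = 2.98e-07) and 2.04 ± 0.08 (adjusted p = 1.25e-08).

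**Figure D4:**
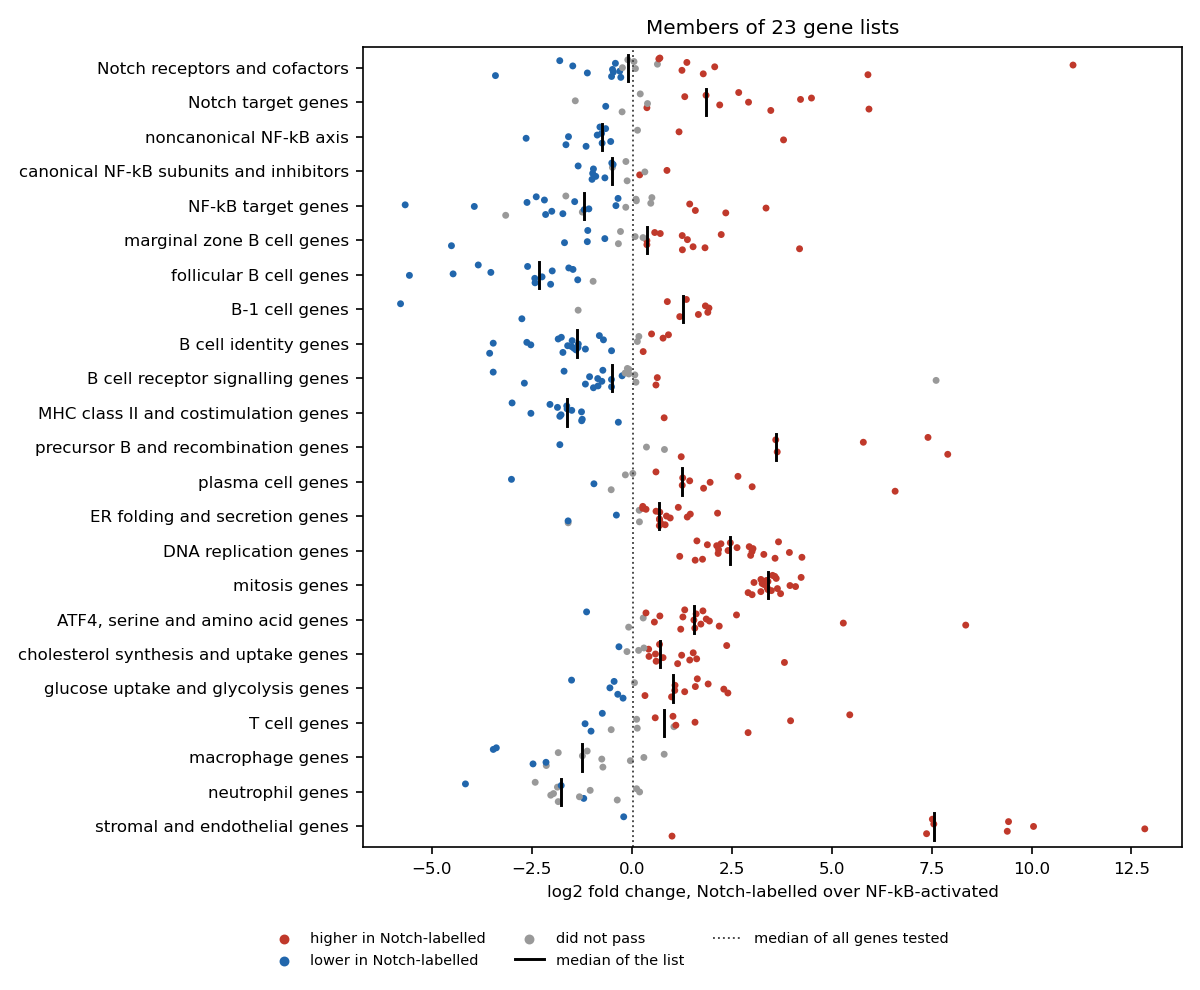
Log2 fold change, Notch-labelled over NF-kB-activated, on the horizontal axis for every tested member of 23 gene lists, 1 row a list. Red members were called higher, blue lower and grey did not pass, a bar marks each list's median, and the dotted line marks the median of all genes tested (0.03). The DNA replication and mitosis lists lie wholly to the right, and follicular and MHC class II genes mostly to the left.

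Marginal zone genes were mixed, although the Notch-labelled cells carry that label: 11 of 20 were higher, 5 lower and the median was 0.38. Cd1d2, a lipid-presenting molecule, had 38.7 and 40.3 CPM in Notch-labelled libraries and 2.04 and 2.25 CPM in NF-kB-activated ones (4.196 ± 0.23), and its neighbour Cd1d1 had 237 and 236 CPM in Notch-labelled and 102 and 94.97 CPM in NF-kB-activated libraries (1.26 ± 0.16). S1pr3 (0.57) and S1pr1 (0.71), the sphingosine phosphate receptors that hold cells in the marginal zone, the tetraspanin gene Cd9 (1.53), the scavenger receptor gene Cd36 (1.83) and the integrin gene Itgb1 (1.39) were higher. Cr2, the complement receptor CD21 whose high surface level defines the marginal zone cell and its precursor, went against the label. It stood at 111 and 109.9 CPM in Notch-labelled libraries and 2429.6 and 2607 CPM in NF-kB-activated libraries (-4.51 ± 0.20, adjusted p = 6.17e-08). Doubly activated libraries had 2939 and 2867 CPM, lymphoma 28.5 and 23.3 CPM and control 2897 and 1873 CPM, so that only lymphoma was lower than the Notch-labelled group.

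Follicular genes were lower in 13 of 14 cases, with a median of -2.33. Fcer2a, the low-affinity IgE receptor CD23, had 10.8 and 9.39 CPM in Notch-labelled libraries and 421 and 537 CPM in NF-kB-activated ones (-5.56 ± 0.19, adjusted p = 4.32e-09). Icosl, the ligand of the T cell costimulator ICOS, had 29.0 and 29.0 CPM in Notch-labelled and 589 and 698 CPM in NF-kB-activated libraries (-4.47 ± 0.10, adjusted p = 4.76e-11). Mature follicular cells also carry IgD, and Ighd fell to 72.7 and 66.7 CPM in Notch-labelled libraries, against 796 and 812 CPM in NF-kB-activated ones. The homing receptor gene Ccr7 was the exception that did not pass (-0.97, adjusted p = 0.0706), though it did without either control library (adjusted p = 0.0193 and 0.0189).

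B-1 genes were higher in 7 of 10 cases and lower in 2, with a median of 1.28. Cd5, the inhibitory receptor that defines B-1a cells, had 21.2 and 19.9 CPM in Notch-labelled libraries and 5.24 and 5.76 CPM in NF-kB-activated ones (1.90 ± 0.17). Cd300lf, an inhibitory lipid receptor gene, had 189 and 177 CPM in Notch-labelled and 58.4 and 56.8 CPM in NF-kB-activated libraries (1.66 ± 0.13), and the interleukin 5 receptor gene Il5ra was higher too (1.93). Pdcd1lg2, which encodes the checkpoint ligand PD-L2, was lower, at 0.250 and 0.494 CPM in Notch-labelled and 20.2 and 21.7 CPM in NF-kB-activated libraries (-5.79 ± 0.32).

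B cell identity genes were present in both groups but 18 of 24 were lower in Notch-labelled cells and 4 higher, with a median of -1.37. Ebf1, a transcription factor that sets up the B lineage, had 45.0 and 46.9 CPM in Notch-labelled and 256 and 274 CPM in NF-kB-activated libraries (-2.53 ± 0.09, adjusted p = 7.69e-10). Foxo1 (-2.63), the repressor gene Bach2 (-3.56) and the coactivator gene Pou2af1 (-1.76) were lower with it. Pax5, the guardian of B cell identity, went the other way at 409.7 and 378 CPM in Notch-labelled and 239.9 and 218 CPM in NF-kB-activated libraries (0.78 ± 0.17, adjusted p = 0.00327), as did its partner Tcf3 (0.92).

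Antigen presentation was lower almost throughout: 13 of 14 class II and costimulation genes were lower, with a median of -1.62, and Cd86 alone was higher (0.81). H2-Aa, a class II alpha chain gene, had 519 and 476 CPM in Notch-labelled libraries and 2750.4 and 2978 CPM in NF-kB-activated ones (-2.53 ± 0.10, adjusted p = 1.09e-09). H2-Ob, part of the brake on peptide loading, had 138 and 128 CPM in Notch-labelled and 1064 and 1064 CPM in NF-kB-activated libraries (-2.996 ± 0.10), and the master regulator Ciita had 227 and 211 CPM in Notch-labelled and 761 and 768 CPM in NF-kB-activated libraries (-1.80 ± 0.08). The class I genes H2-K1 and H2-D1 did not pass (adjusted p = 0.546 and 0.642). Downstream of the B cell receptor, 13 of 22 signalling genes were lower and 2 higher, led by the exchange factor gene Rasgrp3 at 33.1 and 33.0 CPM in Notch-labelled and 339 and 391.7 CPM in NF-kB-activated libraries (-3.47 ± 0.13). The adaptor gene Dok3 (-2.69) and the inhibitory lectin gene Siglecg (-1.70) were lower.

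Receptors that position B cells were lower in 10 of 17 cases and higher in 3, with a median of -1.16. Ccr6, the receptor of CCL20, had 1.399 and 0.741 CPM in Notch-labelled libraries and 168 and 176 CPM in NF-kB-activated ones (-7.32 ± 0.22, adjusted p = 7.87e-10), with control cells at 109.6 and 104 CPM. Gpr174, a lysophosphatidylserine receptor, had 2.40 and 2.47 CPM in Notch-labelled and 122 and 157 CPM in NF-kB-activated libraries (-5.84 ± 0.17), and P2ry10, another lysophospholipid receptor, had 3.996 and 3.76 CPM in Notch-labelled and 107 and 128 CPM in NF-kB-activated libraries (-4.92 ± 0.14). The group gap exceeded the gap within groups for each of the 3. They were named by the size or the p of their change, so this follows in part from that choice. Cxcr5, which guides cells into follicles, was lower as well (-2.25), and the 3 that were higher were the sphingosine phosphate receptor genes S1pr1, S1pr2 and S1pr3. The S1pr2 call was lost without Notch-labelled replicate 2 (adjusted p = 0.116) or NF-kB-activated replicate 1 (0.141).

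Cytokine receptors gave one of the most abundant differences. Il9r, the interleukin 9 receptor (ENSMUSG00000020279, chr11:32187541-32200279), had 67.1 and 71.0 CPM in Notch-labelled libraries and 2803 and 2964 CPM in NF-kB-activated ones (-5.38 ± 0.09, adjusted p = 4.39e-12). Control cells, at 197 and 192 CPM, lay between the groups, and doubly activated cells, at 2610.1 and 2722 CPM, lay beside the NF-kB-activated ones. Il21r, the interleukin 21 receptor gene, had 26.8 and 24.5 CPM in Notch-labelled and 204 and 243 CPM in NF-kB-activated libraries (-3.12 ± 0.13). Il10, an anti-inflammatory cytokine gene, went the other way with 16.3 and 15.5 CPM in Notch-labelled and 0.681 and 0.209 CPM in NF-kB-activated libraries (5.14 ± 0.35, adjusted p = 8.23e-08). Over 19 cytokine and receptor genes 5 were higher and 11 lower (median -0.69). Over 18 integrin and adhesion genes 7 were higher and 9 lower (median -0.39), with Itgb3 (-3.08) and Itgb1 (1.39) on opposite sides. Without NF-kB-activated replicate 2 the adhesion genes had 4 higher. Toll-like receptors and their partners gave 2 higher, 7 lower and 6 not called (median -0.28), with the largest change in Cd180 (-1.74), a Toll-like receptor relative.

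Cell cycle genes all differed in 1 direction. All 21 DNA replication genes and all 20 mitosis genes tested were higher in Notch-labelled cells, with medians of 2.46 and 3.41 on the log2 scale, against 0.03 for all genes. Mki67, the proliferation antigen Ki-67, had 834 and 819 CPM in Notch-labelled libraries and 82.6 and 52.6 CPM in NF-kB-activated ones (3.61 ± 0.36, adjusted p = 0.000187). Mcm2, part of the replicative helicase, had 409 and 398 CPM in Notch-labelled and 56.3 and 44.1 CPM in NF-kB-activated libraries (3.01 ± 0.12), and Plk1, a mitotic kinase, had 110.3 and 102 CPM in Notch-labelled and 6.86 and 4.40 CPM in NF-kB-activated libraries (4.24 ± 0.18). Lymphoma libraries had 512 and 713 CPM of Mki67 and control libraries 193 and 115 CPM, so the Notch-labelled cells exceeded every other group. Among cell cycle inhibitors and p53 genes, 6 were higher and 5 lower (median -0.28). Cdkn2c, an inhibitor of CDK4 and CDK6, had 52.3 and 57.4 CPM in Notch-labelled and 13.0 and 9.27 CPM in NF-kB-activated libraries (2.30 ± 0.17). Cdkn1b, which encodes p27, was lower (-1.401). In the Myc network 5 genes were higher and 5 lower (median 0.14). Myc was at 286 and 282 CPM in Notch-labelled and 130.2 and 96.8 CPM in NF-kB-activated libraries (1.32 ± 0.37, adjusted p = 0.0212). The Myc call was lost without any 1 of the 4 libraries compared (adjusted p between 0.0535 and 0.121), and without NF-kB-activated replicate 1 the network had 3 genes higher. Its antagonists Mxd3 (3.25) and Mga (-1.23) lay on opposite sides.

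Biosynthetic genes were mostly higher as well. Serine, one-carbon and amino acid genes under the stress factor ATF4 were higher in 17 of 20 cases (median 1.56), and Shmt1, a serine hydroxymethyltransferase, had 82.7 and 77.8 CPM in Notch-labelled libraries and 14.1 and 11.99 CPM in NF-kB-activated ones (2.62 ± 0.12). Atf4 itself did not pass (-0.08). Cholesterol genes were higher in 13 of 17 cases (median 0.69). Glycolysis genes were split, with 10 higher and 5 lower (median 1.03). Pkm, a pyruvate kinase, had 1736 and 1703 CPM in Notch-labelled and 497 and 418 CPM in NF-kB-activated libraries (1.91 ± 0.10), and Hk2, a hexokinase, was higher (2.40), but the glucose transporter genes Slc2a1 (-0.44) and Slc2a3 (-1.51) were lower. Folding genes of the endoplasmic reticulum were higher in 16 of 21 cases (median 0.69), among them Sdf2l1 (2.14) and Pdia6 (1.46), while Herpud1 (-1.59) was lower.

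Plasma cell genes were higher in 9 of 14 cases and lower in 2 (median 1.27). Irf4, which drives plasma cell fate at high levels, had 571 and 535 CPM in Notch-labelled libraries and 195 and 211 CPM in NF-kB-activated ones (1.45 ± 0.14), and Prdm1, which encodes Blimp-1, had 25.2 and 22.7 CPM in Notch-labelled and 13.1 and 6.70 CPM in NF-kB-activated libraries (1.27 ± 0.28). Xbp1 differed less, at 121 and 116 CPM in Notch-labelled and 76.4 and 79.0 CPM in NF-kB-activated libraries (0.60 ± 0.08), and Jchain, the joining chain of secreted IgM, was lower (-3.01), a call lost without either Notch-labelled library or NF-kB-activated replicate 1 (adjusted p between 0.0532 and 0.0852), which left 1 lower gene. Ighm did not pass, with 4628 and 4303 CPM in Notch-labelled and 5499 and 4809.8 CPM in NF-kB-activated libraries (adjusted p = 0.058), although it passed without either lymphoma library, either control library or NF-kB-activated replicate 2 (adjusted p between 0.0220 and 0.0422). Ighg3 had 396 and 380.1 CPM in Notch-labelled libraries and 36.5 and 23.9 CPM in NF-kB-activated ones (3.68 ± 0.30, adjusted p = 3.71e-05). Germinal centre and diversification genes gave 7 higher and 3 lower of 13: the repair genes Ung (2.76) and Exo1 (2.93) were higher, and Bcl6 (-2.03), the regulator of germinal centre cells, was lower.

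Genes of B cell precursors stood out in the Notch-labelled libraries, where 6 of 9 tested genes were higher and 1 lower (median 3.60). Sox4, a transcription factor of early lymphocytes, had 893 and 837 CPM in Notch-labelled libraries and 7.44 and 2.72 CPM in NF-kB-activated ones (7.41 ± 0.40, adjusted p = 5.93e-06). Dntt, the terminal transferase that adds bases at V(D)J joints, had 34.5 and 43.9 CPM in Notch-labelled and 0.157 and 0.157 CPM in NF-kB-activated libraries (7.90 ± 0.64, adjusted p = 6.37e-06). None of the other 4 groups reached these levels of either gene, the lymphoma libraries having 1.43 and 0.879 CPM of Sox4 and 0 and 0.293 CPM of Dntt. Rag1 and Rag2, which make the recombinase, were low but higher in Notch-labelled libraries, Rag2 at 1.20 and 2.13 CPM, against 0.105 and 0.157 CPM in NF-kB-activated ones. The surrogate light chain genes Igll1, Vpreb1 and Vpreb2 had no count in any of the 4 libraries, and Lef1 was lower (-1.80).

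Genes of other lineages differed as well. The collagen genes Col1a1, Col1a2 and Col3a1 led the stromal list, and Col1a2 had 391 and 534 CPM in Notch-labelled libraries and 0.681 and 0.681 CPM in NF-kB-activated ones (9.39 ± 0.22, adjusted p = 1.75e-10). Pdgfra and Pdgfrb, the platelet-derived growth factor receptors of mesenchymal cells, were both higher, Pdgfra being at 19.7 and 25.4 CPM in Notch-labelled libraries, against 0 and 0.0524 CPM in NF-kB-activated ones (9.42 ± 0.76). Endothelial Cdh5 stayed low, at 4.45 and 3.56 CPM in Notch-labelled and 1.78 and 2.20 CPM in NF-kB-activated libraries, a call lost without Notch-labelled replicate 1 (adjusted p = 0.0885) or NF-kB-activated replicate 1 (0.098). Pecam1, which B cells also express, had a log2 fold change of -0.20. Thy1, a surface protein of T cells and of fibroblasts, had 257 and 248 CPM in Notch-labelled libraries and 6.81 and 4.71 CPM in NF-kB-activated ones (5.45 ± 0.29) and made up most of the T cell sum there, whereas Cd3e did not pass at 6.44 and 5.09 CPM in Notch-labelled and 2.72 and 2.83 CPM in NF-kB-activated libraries, though it did without any 1 of the lymphoma or control libraries (adjusted p between 0.0334 and 0.046). In a bulk library, fewer cells of a type and less RNA per cell cannot be told apart.

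On the NF-kB-activated side, S100a8, a neutrophil calprotectin subunit, had 2.997 and 2.32 CPM in Notch-labelled libraries and a widely spread 73.9 and 21.6 CPM in NF-kB-activated ones (-4.16 ± 1.18, adjusted p = 0.0246). Its call was lost without Notch-labelled replicate 1 (adjusted p = 0.114) or 2 (0.131) or without NF-kB-activated replicate 1 (0.157). Zbtb46, a dendritic cell transcription factor gene, had 2.55 and 2.37 CPM in Notch-labelled and 39.5 and 41.8 CPM in NF-kB-activated libraries (-4.04 ± 0.22), while 5 of 8 dendritic cell genes did not pass and the 3 lower ones became 1 without Notch-labelled replicate 1 or NF-kB-activated replicate 1. Of 6 erythroid genes, edgeR called 0, with 0 at an unadjusted p under 0.05 and 0 called by DESeq2, and their sums overlapped at 52.95 and 48.2 CPM in Notch-labelled and 81.4 and 33.0 CPM in NF-kB-activated libraries. Among Y-linked genes, Kdm5d had 17.2 and 20.2 CPM in Notch-labelled and 154 and 171 CPM in NF-kB-activated libraries (-3.12 ± 0.36), and Ddx3y had 2.40 and 1.88 CPM in Notch-labelled and 173 and 178 CPM in NF-kB-activated libraries (-6.35 ± 1.68, adjusted p = 0.0208). The Ddx3y call was lost when any 1 of the 4 libraries was left out (adjusted p between 0.0553 and 0.115), and the control libraries themselves differed, at 59.7 and 0.652 CPM.

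Interferon response genes gave 12 higher and 4 lower of 23 (median 0.52). Gbp2, a guanylate-binding protein gene, had 291 and 282 CPM in Notch-labelled libraries and 38.6 and 29.7 CPM in NF-kB-activated ones (3.07 ± 0.11, adjusted p = 8.28e-10), and Isg15 was higher (2.72), but Oas1a (-1.55) and Irf7 (-1.43) were lower. The lower calls were 2 without NF-kB-activated replicate 2. Ifi202b, an interferon-inducible gene outside that list, had 9.89 and 12.6 CPM in Notch-labelled libraries and no count in NF-kB-activated ones (at least 143-fold). Of 21 immediate early genes 7 were higher, near the 33.5% of all genes, 4 were lower and 10 did not pass (median 0.47). Ier3 had the largest change (6.49). Fewer were higher without Notch-labelled replicate 2 or either NF-kB-activated library. Heat shock genes were higher in 7 of 11 cases (median 0.74), with Hsp90ab1 at 4042 and 3969 CPM in Notch-labelled and 1808 and 1967 CPM in NF-kB-activated libraries (1.09 ± 0.11). The inducible Hspa1b did not pass and its groups overlapped, its NF-kB-activated libraries lying far apart at 4.72 and 44.4 CPM. Genes of the Bcl2 family were split, with 6 higher and 8 lower (median -0.70). The antiapoptotic Bcl2 had 125 and 119 CPM in Notch-labelled and 289 and 287 CPM in NF-kB-activated libraries (-1.24 ± 0.08). The proapoptotic Bak1 had 109 and 104 CPM in Notch-labelled and 40.7 and 37.5 CPM in NF-kB-activated libraries (1.45 ± 0.09). Myeloid transcription factors were higher in 6 of 12 cases (median 0.64), led by Nfil3 (3.74), Cebpd (3.28) and Gfi1 (3.15), while Spi1, which encodes PU.1, did not pass (0.08). Without NF-kB-activated replicate 2 the higher calls were 3. NK cell genes were split at 3 higher and 2 lower of 8 (median 0.24).

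Among the most abundant genes with more than a 2-fold difference, the tubulin genes Tubb5 (2069 and 1930.0 CPM in Notch-labelled libraries, against 494 and 482 CPM in NF-kB-activated ones) and Tuba1b (2.32) were higher, together with Gapdh (1.56), Pkm, Hsp90ab1, Ptma (1.61), which encodes prothymosin alpha, the ribosomal protein gene Rpl28 (1.15) and the protease gene Ctsz (2.04). The most abundant genes that were lower held Il9r, the class II genes H2-Aa, H2-Eb1 (-1.63) and H2-Ab1 (-1.26), and Cd74, the invariant chain, at 4168 and 3842 CPM in Notch-labelled and 9479.8 and 9643 CPM in NF-kB-activated libraries (-1.26 ± 0.09). They also held Macf1, a cytoskeletal crosslinker gene, at 548 and 536 CPM in Notch-labelled and 3434 and 3532 CPM in NF-kB-activated libraries (-2.68 ± 0.13), and the mitochondrial genes mt-Co2 (-1.95) and mt-Co3 (-1.31).

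The 12 largest rises were ranked by the fitted log2 fold change, and all had no count in either NF-kB-activated library. Without counts in a group the fit runs above the bound (Ccn2 11.2 fitted, 7.63 bounded), so the shared zero follows in part from the ranking. Col1a2, with counts in both groups, had 9.39. Besides Notch3 and Col3a1 (39.6 and 57.2 CPM in Notch-labelled libraries, at least 617-fold), they held Kirrel, a cell adhesion gene of the immunoglobulin superfamily, at 34.4 and 46.8 CPM (at least 517-fold), Thbs2, a thrombospondin gene, at 18.9 and 23.1 CPM (at least 268-fold), and the matrix and growth genes Tnc, Ccn2, Medag and Wwtr1 (at least 170.4- to 205-fold). N4bp2 had 40.5 and 36.2 CPM in Notch-labelled libraries (at least 488-fold). Rps13-ps2, at 82.7 and 114 CPM, is a processed pseudogene, Eno1b, at 69.0 and 91.6 CPM, is a near copy of Eno1, and Hist1h2ao belongs to a family of near-identical histone genes, so their counts are uncertain. Hist1h2ao also lost its call when any 1 of the 4 libraries was left out (adjusted p between 0.0632 and 0.0760).

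The 12 largest falls began with Cnr1. Sspo, which encodes the secreted brain protein SCO-spondin, had 0.400 and 1.09 CPM in Notch-labelled libraries and 373 and 388 CPM in NF-kB-activated ones (-8.98 ± 0.26, adjusted p = 3.53e-09). Aire, the autoimmune regulator known from the thymus, had 6.74 and 5.83 CPM in Notch-labelled and 421 and 576 CPM in NF-kB-activated libraries (-6.31 ± 0.18, adjusted p = 6.73e-10). Gpr34, a lysophosphatidylserine receptor gene, had 0.450 and 0.445 CPM in Notch-labelled and 41.3 and 42.1 CPM in NF-kB-activated libraries (-6.52 ± 0.22). Each of these genes was low but countable in Notch-labelled libraries and high in NF-kB-activated ones, though Cnr1 had only 3 and 1 counts in the former. Map3k19 was lower too (-7.08), as was Ccr6, and Phkg1, a phosphorylase kinase subunit gene, had 27.6 and 4.05 CPM in Notch-labelled and 2736 and 1768 CPM in NF-kB-activated libraries. With 1 to 3 counts over both Notch-labelled libraries, Nhs was lower by 966-fold (95% counting interval 173 to 38178), the water channel gene Aqp4 by 253-fold (95% counting interval 45.0 to 10033), Pcp4 by 114-fold (95% counting interval 31.3 to 950.4) and Ndnf by 92.4-fold (95% counting interval 31.3 to 451). Adm, the adrenomedullin gene, had 0.04995 and 0 CPM in Notch-labelled libraries and 2.10 and 43.1 CPM in NF-kB-activated ones, and its call (adjusted p = 0.0181) was lost without Notch-labelled replicate 1 (adjusted p = 0.0947) or 2 (0.102).

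The contrast of doubly activated over control cells, with 10.5% of genes called higher and 9.30% lower, shares no library with the comparison above and gives a second view of these genes. Without doubly activated replicate 2 its 3090 calls became 1624. Of the 12 largest rises, N4bp2 alone was called higher there (2.58 ± 0.58, adjusted p = 0.0219). Of the 12 largest falls, 6 were called higher there, namely Cnr1 (7.51 ± 0.31), Nhs (2.58 ± 0.35), Sspo (9.15 ± 0.28), Aqp4 (5.08 ± 0.57), Gpr34 (2.81 ± 0.17) and Aire (6.02 ± 0.18), and Pcp4 was called lower (-2.41 ± 0.53). Ccr6, Map3k19, Phkg1, Adm and Ndnf were not called there, and control cells carried the first 3 at 109.6 and 104, 40.4 and 44.4 and 1875 and 5489 CPM. For Cnr1, Sspo and Aire, NF-kB-activated and doubly activated libraries were thus the high ones and Notch-labelled, lymphoma and control libraries the lower ones. Aire was uneven among the lower ones, with 55.0 and 52.2 CPM in lymphoma libraries. Notch-labelled libraries had 6.74 and 5.83 CPM of it and control libraries 4.12 and 5.11 CPM.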

How the data were processed

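Total RNA of sorted mouse B lineage cells had been extracted on silica columns and sequenced as Illumina libraries, per the labels' protocols. The authors deposited 1 table per library with estimated counts, TPM and effective lengths of 88198 transcripts. These estimated counts were not normalized, per the file headers and values, and the deposited TPM are scaled by the authors within each library. Kallisto 0.44.0 and the build mm10 are named in the submitters' processing notes. Estimated counts were summed by gene over the 86031 transcripts matched to an annotation (2167 were not matched, 1.09% to 1.38% of the counts), giving 30205 genes (44 with a symbol that is not unique), and were rounded.

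All 10 libraries in 5 groups were fitted together with edgeR 4.0.16 in R 4.3.3 (TMM scaling, filterByExpr with a minimum count of 10, quasi-likelihood test, Benjamini-Hochberg adjustment over the 15583 genes tested, threshold 0.05), and contrasts were taken from that fit, which was tested on simulated data. The common biological coefficient of variation was 0.121 with 5 residual degrees of freedom. Alternatives used DESeq2 1.42.0, limma 3.58.1, other scalings, filters, samples and lengths, a minimum fold, blocking by replicate number, and leaving out each library. Same-numbered libraries did not deviate together (correlations of -0.107 to 0.0861 over 10374 genes and 10 pairs), and no label says that the numbers pair them. A small effect shared by same-numbered libraries could go unseen here. Since the libraries are not tied to animals, p-values cover the spread between libraries only, which may be technical. With 2 libraries a group, each library's value is given in place of a mean.

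The genes and the 39 lists (572 genes, 557 tested) were chosen with earlier results of these data known, so list counts and medians are descriptions without a test. Genes were named by a rule: a short set of pathway and B cell genes, the 12 largest calls in each direction with a mean of at least 5 CPM and no overlap between groups, the 8 most abundant calls in each direction, and in each list the 3 members with the smallest p. Predicted genes, receptor segments and Y-linked genes were left out of the largest and most abundant. Other members named were chosen after their values were seen. Intervals and floors cover counting error only, and strand handling is not stated. Xist was not analysed here. Some genes that the rule names are not reported here.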

Additional observations from a re-analysis of the deposited data

How the results depend on the processing

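Each of 597 genes (those named by the rule and the list members tested) was recomputed under 22 alternatives, in 13077 comparisons. Direction and side of the threshold were kept in 12407 of these, 439 comparisons (130 genes) lost the call, 231 (68 genes) gained it, and 0 reversed a called direction. A required minimum fold of 1.5 left 6128 genes called, 3378 higher and 2750 lower, and 815 in the contrast of doubly activated over control. With libraries left out in turn, calls ranged from 8510 to 10584, higher calls from 4233 to 5498, lower calls from 4135 to 5263, calls by over 2-fold from 4999 to 5876, and doubly activated over control calls from 1624 to 3081. When a group is left with 1 library, that library is assumed to vary like the other groups. The replicate block gave 9759 calls, 5067 higher and 4692 lower. No label says that its numbers pair the libraries. Library size without a scaling factor moved the median of all genes by 0.105 and the share of called genes that were higher to 57.4%, against 51.9% with TMM. None of the 597 genes turned a called direction under it. Over 78 counts of list members called, 103 of 1716 recomputed counts moved by more than 1.5 times, 26 of them under the minimum fold. Fitting the 4 compared libraries alone gave 10882 calls and no value for doubly activated over control. DESeq2 gave 9349 and limma-voom 10395 calls. The causes were not tested. Depth limits genes with 0 to 3 counts in a group, whose folds are bounds or ratios with wide intervals.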
